A study of Mus musculus with 96 samples.

Results

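The 8 genes described here, Adcy1, Adcy2, Adcy3, Adcy5, Adcy6, Adcy7, Adcy8 and Adcy9, encode membrane adenylyl cyclases, the enzymes that make cyclic AMP from ATP. They were taken by name from the deposited table of read counts, in which all 8 were found among 48795 genes; Adcy4 and Adcy10, which also encode adenylyl cyclases, were outside that list. Striatum and cortex of 48 C57BL/6 mice aged 6 months had each given 1 RNA library per animal, 96 in all, with 4 females and 4 males for each of 6 genotypes. These were wild type (WT), animals heterozygous for the Q140 knock-in (Q140), Pms1+/- (Pms1 het), heterozygous Q140 with Pms1+/- (Q140 Pms1 het), Pms1-/- (Pms1 null) and heterozygous Q140 with Pms1-/- (Q140 Pms1 null). Q140 is an Htt allele with an expanded CAG repeat that models Huntington's disease and is expressed from the mouse gene's own locus. The product of Pms1 belongs to the MutL group of DNA mismatch repair factors, and the labels do not describe how its allele was made.

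Membrane adenylyl cyclases are switched on by the stimulatory G proteins Gs and Golf, and several are held back by Gi. The isoforms differ in their second input: calcium with calmodulin stimulates Adcy1 and Adcy8 and, under some conditions, Adcy3; G protein beta-gamma subunits stimulate Adcy2 and Adcy7; calcium inhibits Adcy5 and Adcy6; and Adcy9 responds little to the plant compound forskolin. In the striatum, medium spiny neurons (MSNs), the projection neurons of that region, use Adcy5 to pass dopamine D1 and adenosine receptor signals from Golf to protein kinase A.

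The members lie on 6 chromosomes of the mouse build GRCm38, and all 8 are annotated as protein-coding genes. Adcy5 (ENSMUSG00000022840, chr16:35154877-35305738, plus strand) and Adcy9 (ENSMUSG00000005580, chr16:4287529-4420498, minus strand) share chromosome 16. Adcy6 (ENSMUSG00000022994, chr15:98589973-98610076, minus strand) and Adcy8 (ENSMUSG00000022376, chr15:64697084-64922296, minus strand) share chromosome 15. The others are Adcy1 (ENSMUSG00000020431, chr11:7063489-7178506, plus strand), Adcy2 (ENSMUSG00000021536, chr13:68620043-68999541, minus strand), Adcy3 (ENSMUSG00000020654, chr12:4133103-4213525, plus strand) and Adcy7 (ENSMUSG00000031659, chr8:88272403-88329962, plus strand). Each value below is a count over a whole gene. Adcy3 overlaps the opposite-strand gene Cenpo over 17522 bases and Adcy8 overlaps the opposite-strand gene Gm21798 over 104603 bases. Whether the counting used strand is not stated, so values of both members may hold reads of their partners. On the same strand, Adcy5 overlaps Gm49702 over 1797 bases, Adcy9 overlaps Gm6142 over 325 bases and Adcy2 overlaps Gm48593 over 2483 bases. Adcy2, Adcy5 and Adcy6 have shorter opposite-strand overlaps too. The effect of these overlaps on the counts was not tested.

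Promoter sequence is shown for the 2 members that changed with the knock-in in the striatum, Adcy5 and Adcy9, and for Adcy1, the member with the highest level in cortex. RefSeq's promoter table for GRCm38.p6 held 6 of the 8 members. Each window is the 250 bases before an annotated start, 5′ to 3′ on the gene's strand. Capitals mark the GC box GGGCGG and the cyclic AMP response element core TGACG on either strand; TGACG also lies inside the full element TGACGTCA, which was searched for as well, together with the TATA box TATAAA. The window of Adcy5 is chr16:35154614-35154863 (plus strand), that of Adcy9 chr16:4420499-4420748 (minus strand) and that of Adcy1 chr11:7063183-7063432 (plus strand).
Adcy5: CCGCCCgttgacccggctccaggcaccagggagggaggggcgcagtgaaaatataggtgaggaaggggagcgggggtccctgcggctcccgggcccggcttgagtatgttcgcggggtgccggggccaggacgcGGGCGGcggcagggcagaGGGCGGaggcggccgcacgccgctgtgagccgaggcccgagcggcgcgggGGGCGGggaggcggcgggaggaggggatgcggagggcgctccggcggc
Adcy9: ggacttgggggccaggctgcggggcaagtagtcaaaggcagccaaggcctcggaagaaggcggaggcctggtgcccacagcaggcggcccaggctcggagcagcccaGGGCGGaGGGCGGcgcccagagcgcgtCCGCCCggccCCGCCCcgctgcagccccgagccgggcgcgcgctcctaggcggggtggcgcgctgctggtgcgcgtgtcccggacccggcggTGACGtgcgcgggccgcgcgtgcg
Adcy1: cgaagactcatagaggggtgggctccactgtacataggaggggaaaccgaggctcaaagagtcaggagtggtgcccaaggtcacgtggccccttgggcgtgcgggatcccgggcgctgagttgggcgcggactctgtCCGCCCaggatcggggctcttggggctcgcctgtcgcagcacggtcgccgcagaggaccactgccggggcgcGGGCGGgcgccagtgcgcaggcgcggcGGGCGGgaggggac
All 3 windows are rich in G and C, at 78.0% for Adcy5, 78.8% for Adcy9 and 71.2% for Adcy1, against a median of 52.4% over the 32851 promoters of the table. They hold 32, 34 and 26 CpG dinucleotides in that order, against a median of 6.0. The GC box occurs 4 times in the Adcy5 window, 4 times in that of Adcy9 and 3 times in that of Adcy1, and at least once in 32.7% of all promoters. The core TGACG occurs once in the Adcy9 window, with its first base at position 227 of the window, and in 17.8% of all promoters. Neither TGACGTCA (1.55% of all promoters) nor TATAAA (12.4%) is present in these 3 windows.

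Libraries held 27993751 to 56364535 counts. Pms1 itself was weakly expressed: in the striatum it lay at 4.89, 5.38 and 5.85 CPM (counts per library, scaled to a common library size; lowest, median and highest) in WT and at 3.08, 4.12 and 4.47 CPM in Pms1 null, with no overlap, while in cortex the groups overlapped (log2 fold change -0.10, adjusted p = 0.467), so whole-gene counts check the Pms1 labels only weakly. The labelled tissues matched their markers, with the summed level of 14 MSN markers at 12828 to 14309 CPM in WT striatum and 830 to 920 CPM in WT cortex. In 4 striatal libraries (1 Q140 Pms1 het, 2 Pms1 null, 1 Q140 Pms1 null) markers of cortical glutamatergic neurons summed to 53.8 to 75.7 CPM, against 31.4 to 42.3 CPM in the others, and in 3 cortical libraries (1 each of Q140, Pms1 null and Q140 Pms1 null) markers of choroid plexus and ependyma summed to 576 to 719 CPM, against 4.55 to 22.4 CPM. All 16 animals that lack Pms1 have an animal code whose first number is 16 or more, as do 3 Q140, 2 WT and 1 Q140 Pms1 het animals and 0 Pms1 het animals; what that number stands for is not stated.

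The family had a different leading member in each tissue. Levels of different genes were compared per gene length, as the authors' FPKM, which divides by gene length and library total. In WT striatum Adcy5 stood at 275, 279 and 291 FPKM (lowest, median and highest of 8 animals), which made it the 70th most abundant of the 48795 genes and gave it a median of 79.3% of the summed FPKM of the 8 members. The next member, Adcy1, stood at 24.2, 26.0 and 28.0 FPKM. Below them came Adcy3 (15.7, 16.6 and 17.4 FPKM), Adcy9 (14.1, 15.5 and 16.1 FPKM) and Adcy2 (10.5, 11.5 and 12.1 FPKM). Adcy6 lay at 2.80, 3.02 and 3.24 FPKM, Adcy8 at 0.693, 0.868 and 0.980 FPKM and Adcy7 at 0.613, 0.670 and 0.735 FPKM. In this order the ranges of Adcy3 and Adcy9 overlapped, as did those of Adcy8 and Adcy7; every other pair of neighbours was apart.

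In WT cortex the calcium-stimulated Adcy1 led, at 107, 115 and 119 FPKM and a median of 52.9% of the family's sum. Adcy2 followed at 37.9, 40.2 and 41.1 FPKM, then Adcy9 at 15.9, 17.5 and 19.1 FPKM. Adcy5, at 16.1, 17.2 and 18.2 FPKM, overlapped Adcy9, and ranked 3203rd among all genes. Adcy6 (9.37, 10.5 and 11.4 FPKM) overlapped Adcy3 (9.03, 9.63 and 10.4 FPKM), and below both lay Adcy8 (5.43, 6.23 and 7.42 FPKM) and Adcy7 (0.845, 1.07 and 1.15 FPKM).

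**Figure D1:**
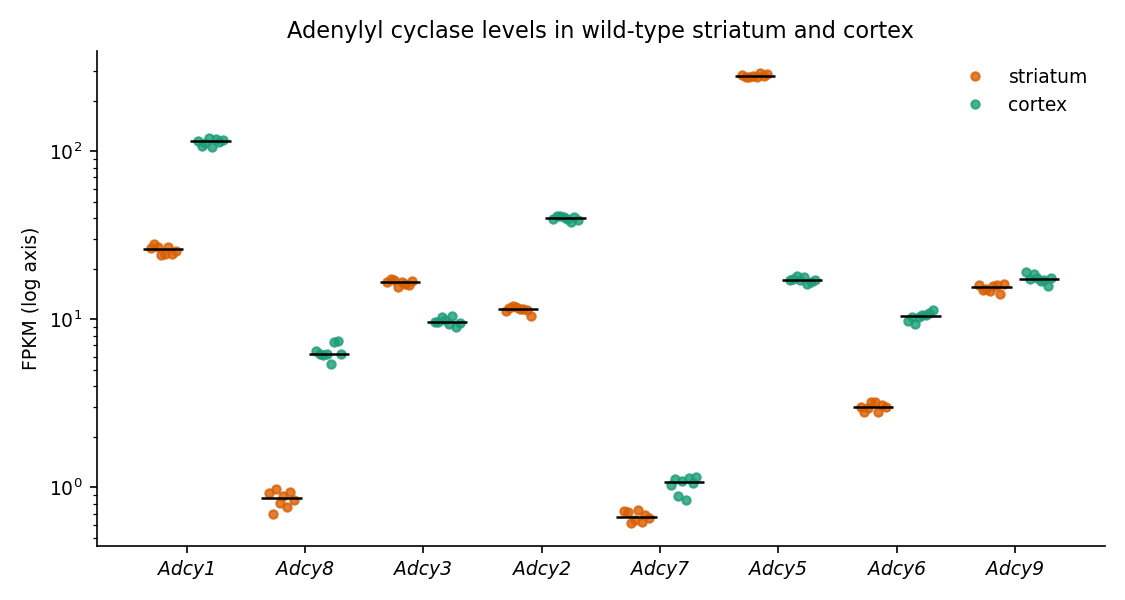
Level of each adenylyl cyclase gene in WT striatum and WT cortex, as FPKM on a log axis, with a point for each of 8 animals and a bar at the median. Adcy5 lies near 279 FPKM in striatum and 17.2 FPKM in cortex, and Adcy1 near 26.0 and 115 FPKM.

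All 8 members differed between WT striatum and WT cortex, in a comparison in which 76.0% of all genes tested did so (38.5% higher and 37.5% lower in striatum). Higher in striatum were Adcy5, by a log2 fold change of 4.03 (SE 0.04), and Adcy3, the cyclase of olfactory neurons and neuronal cilia, by 0.77 (SE 0.03). The other 6 were lower in striatum: Adcy8 by -2.91 (SE 0.10), Adcy1 by -2.13 (SE 0.04), Adcy2 by -1.80 (SE 0.03), Adcy6 by -1.78 (SE 0.04), Adcy7 by -0.63 (SE 0.07) and Adcy9 by -0.19 (SE 0.04, adjusted p = 0.000128). Adcy5 and Adcy6, both inhibited by calcium, differed between the tissues in opposite directions.

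The heterozygous Q140 allele was associated with a lower level of Adcy5 in the striatum. Within a gene, levels are given as CPM scaled for RNA composition. Adcy5 stood at 1937, 2002 and 2125 CPM (lowest, median and highest) in WT and at 1258, 1352 and 1427 CPM in Q140. All 8 Q140 animals were below the lowest WT animal, and the median was lower by 32.5%. This was a log2 fold change of -0.59 (SE 0.04, adjusted p = 8.18e-19). In females it was -0.62, in males -0.57, and among animals with early codes alone -0.60.

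Adcy9, which is widely expressed and sits near the Adcy3 level in striatum, fell less. It stood at 73.7, 82.3 and 86.9 CPM in WT and at 65.6, 72.2 and 74.9 CPM in Q140. Of the 8 Q140 animals, 6 were below the lowest WT animal, and the median was lower by 12.3%. Its log2 fold change came to -0.19 (SE 0.05, adjusted p = 0.00078), with -0.20 in females and -0.18 in males; in each sex Adcy5 and Adcy9 were the 2 members called, against 21.5% of all genes in females (11.5% lower) and 16.7% in males (9.02% lower). Among animals with early codes alone it was -0.20, and scaled by library totals alone it was -0.12 (adjusted p = 0.0208).

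Adcy5 and Adcy9 were the members called, 2 of 8, both lower, in a comparison in which 31.3% of all genes tested were called, 15.4% in that direction. The share of members called was not above that of all genes. The median log2 fold change was -0.05 over the members and 0.01 over all genes. The calcium-stimulated members did not pass the test: Adcy1 lay at 309, 333 and 362 CPM in WT and 276, 306 and 348 CPM in Q140 (log2 fold change -0.09, adjusted p = 0.125), Adcy3 had -0.05 (adjusted p = 0.218) and Adcy8 -0.06 (adjusted p = 0.783). Neither did the beta-gamma-stimulated Adcy2 (-0.03, adjusted p = 0.419) and Adcy7 (-0.05, adjusted p = 0.614). Adcy6, which shares the calcium inhibition of Adcy5, lay at 17.5, 18.6 and 19.7 CPM in WT and 17.0, 19.5 and 20.3 CPM in Q140 (log2 fold change 0.04, adjusted p = 0.599). Each of these 6 had overlapping groups, and with library totals Adcy2, Adcy3, Adcy7 and Adcy8 turned slightly positive (0.04, 0.02, 0.02 and 0.02). For no member did the knock-in effect differ between the sexes by the test of that difference, which called 0% of all genes (0 genes with edgeR, 1221 at an unadjusted p below 0.05, 2 with DESeq2).

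**Figure D2:**
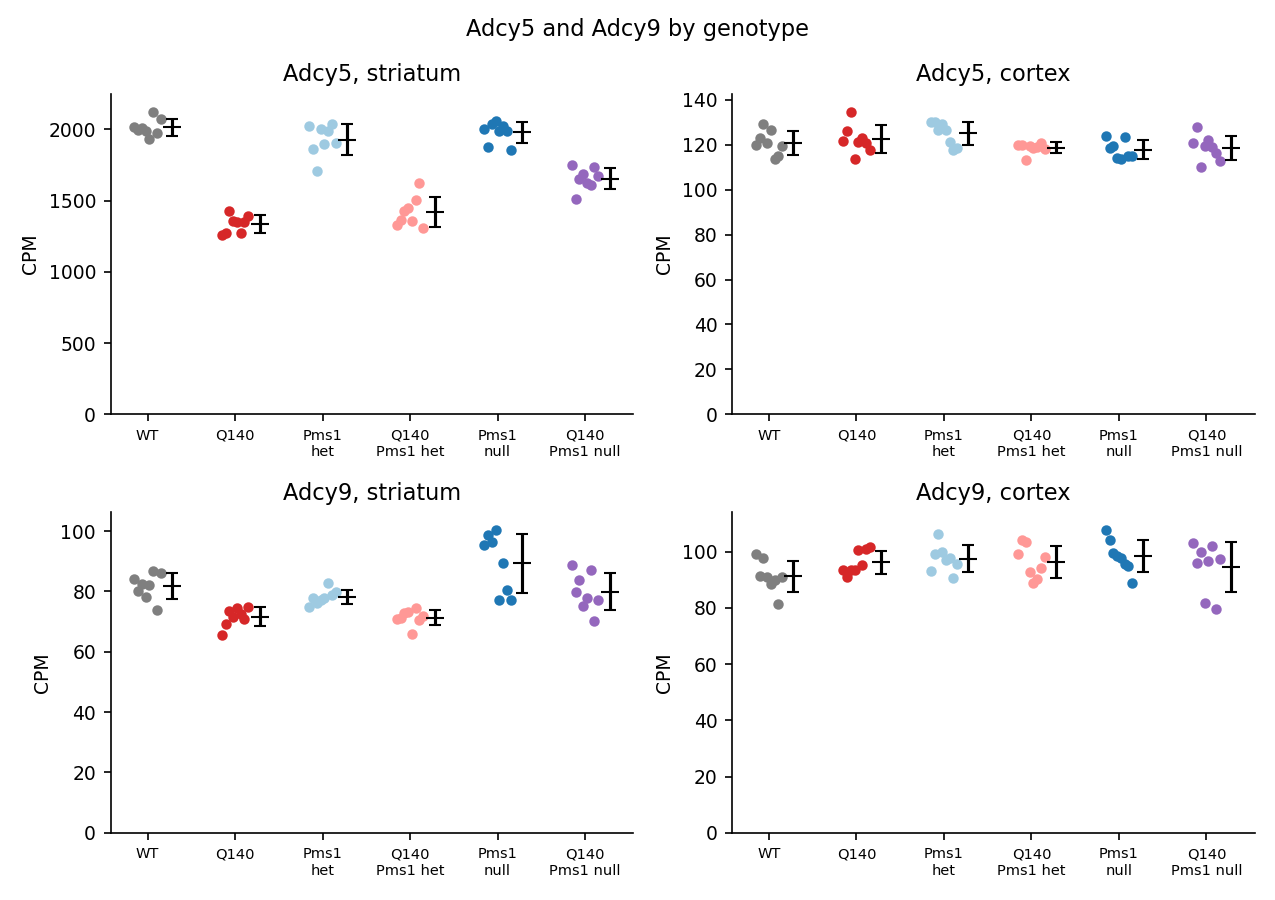
Adcy5 and Adcy9 in the striatum and cortex of every animal by genotype, in CPM with the axis starting at 0. Marks beside the points give each group's mean and standard deviation. In striatum the Q140 animals lie between 1258 and 1427 CPM for Adcy5, all below the WT range. The Q140 Pms1 null animals lie there between 1509 and 1747 CPM, above every Q140 and below every WT animal.

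The summed level of the family in striatum followed that of Adcy5. The 8 members summed to 348, 352 and 366 FPKM in WT striatum and to 259, 272 and 282 FPKM in Q140 striatum. The 7 members other than Adcy5 summed to 70.6, 74.2 and 76.2 FPKM in WT and 70.5, 72.9 and 76.7 FPKM in Q140, with overlapping ranges. The median share of Adcy5 in the family's sum was 72.6% in Q140. FPKM is scaled by library totals and not for RNA composition.

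**Figure D3:**
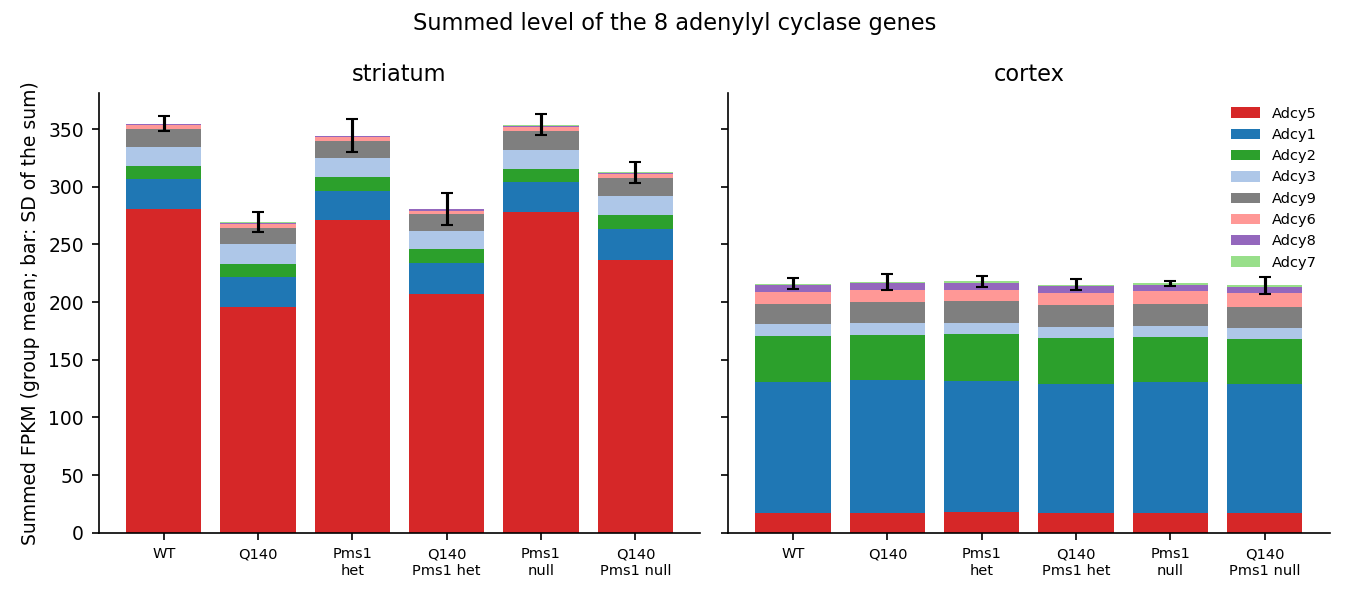
Mean FPKM of each of the 8 adenylyl cyclase genes, stacked to their sum, in striatum and cortex by genotype. The error bar is the standard deviation of the sum over the 8 animals of a group. In striatum the sum of 8 has a mean of 355 in WT and 269 in Q140. The 7 genes other than Adcy5 have mean sums from 73.1 to 76.1 over the 6 genotypes there.

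Markers of MSNs moved with Adcy5. Of 14 such markers, 13 were lower and 1, Tac1, was higher in Q140 striatum, where 15.4% of all genes were lower, and their summed level was 12828, 13820 and 14309 CPM in WT and 8428, 9119 and 9620 CPM in Q140. Adcy5 was 14.0%, 14.8% and 15.2% of that sum in WT and 14.5%, 14.9% and 15.0% in Q140, with overlapping ranges. Adcy9 was 0.563%, 0.593% and 0.641% of the sum in WT and 0.773%, 0.779% and 0.855% in Q140, with no overlap. Markers of microglia (8 of 10 lower, none higher) and of endothelial and mural cells (6 of 10 lower, none higher) were lower too, against the same 15.4%; their part in the Adcy5 and Adcy9 results was not tested. In bulk tissue fewer cells of a type and less RNA per cell cannot be told apart.

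In cortex none of the 8 members was called for Q140 against WT, where 0.0428% of all genes were (8 genes). Adcy5 lay at 114, 120 and 129 CPM in WT cortex and 114, 121 and 135 CPM in Q140 cortex. The member with the smallest p, Adcy7, had a log2 fold change of -0.16 (SE 0.06, adjusted p = 0.514). The knock-in effect differed between the tissues for 2 members, Adcy5 and Adcy9, in a test that called 13.3% of all genes, with 8.32% lower in striatum relative to cortex. The difference, striatum minus cortex, was -0.62 for Adcy5 (adjusted p = 8.18e-20) and -0.28 for Adcy9 (adjusted p = 0.000581). Adcy9 itself had 0.08 in cortex, which did not pass the test (adjusted p = 0.743).

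**Figure D4:**
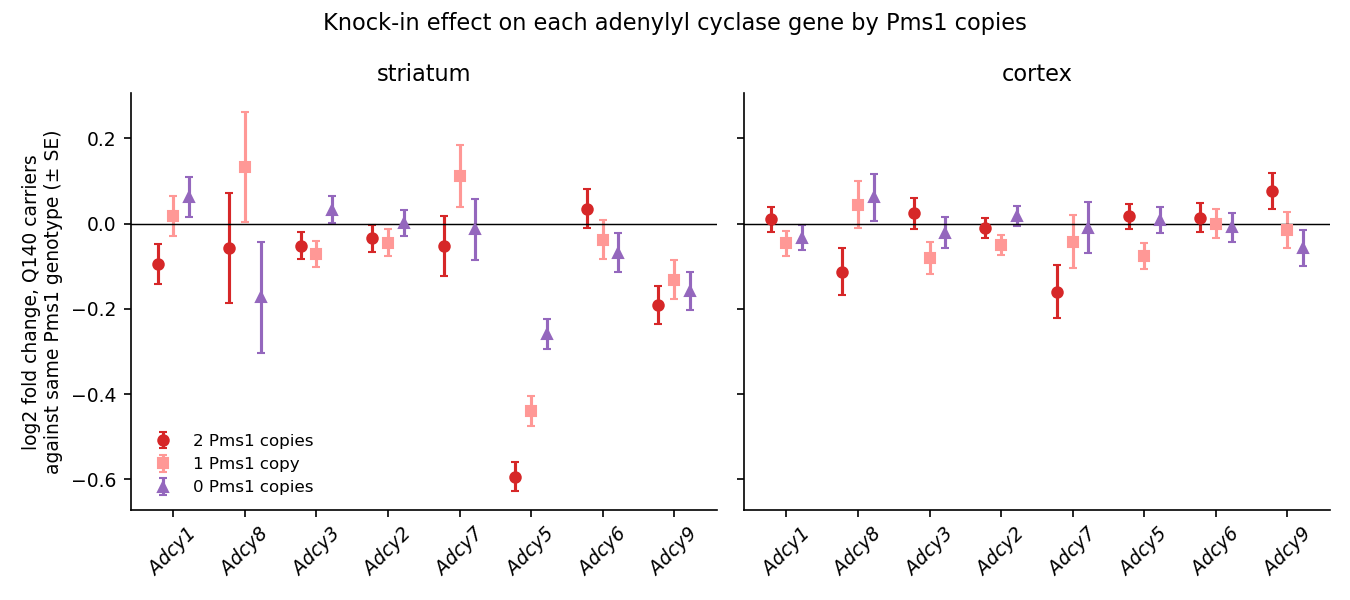
Log2 fold change of each adenylyl cyclase gene with its standard error for the Q140 allele on the 3 Pms1 backgrounds, in striatum and cortex. Adcy5 in striatum is at -0.59 on the WT background, -0.44 on Pms1 het and -0.26 on Pms1 null, and the cortical values of Adcy5 lie near 0.

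The Q140 allele also lowered Adcy5 in striatum on both other Pms1 backgrounds. On the Pms1 het background, Adcy5 was 1706, 1948 and 2036 CPM without and 1310, 1397 and 1627 CPM with the knock-in, and all 8 knock-in animals were below the lowest control. The log2 fold change was -0.44 (adjusted p = 4.83e-14), in a comparison that called 24.9% of all genes (12.1% lower), and Adcy9 was called too at -0.13 (adjusted p = 0.028). For Adcy9 as well, all 8 knock-in animals were below the lowest control. The Adcy9 call was lost with library totals, no filter on low counts, limma on FPKM, or either sex alone (adjusted p from 0.0544 to 0.236).

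On the Pms1 null background, where every animal has a late code, Adcy5 was 1857, 1999 and 2060 CPM without and 1509, 1663 and 1747 CPM with the knock-in. Again all 8 knock-in animals were below the lowest control, with a log2 fold change of -0.26 (adjusted p = 5.78e-07) in a comparison that called 11.1% of all genes (5.47% lower). Adcy9 was 77.1, 92.4 and 100.3 CPM without and 70.3, 78.8 and 88.6 CPM with the knock-in (log2 fold change -0.16, adjusted p = 0.0159), with 2 animals below the lowest control. That call was lost in males alone (log2 fold change -0.05, adjusted p = 0.691) and when only the genotypes compared were fitted (-0.15, adjusted p = 0.116).

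The difference between the knock-in effects was tested as an interaction. For Adcy5 the effect was smaller on the Pms1 null than on the WT background by 0.33 on the log2 scale (adjusted p = 2.77e-05); this was the 1 member of 8 called, against 5.05% of all genes (3.37% in that direction). In males alone the interaction was 0.29 and did not pass (adjusted p = 0.0794). For Adcy9 it was 0.03 (adjusted p = 0.837). With the Pms1 het background it was 0.15 for Adcy5 (adjusted p = 0.334), and that test called 0% of all genes (0 with edgeR, 12 with DESeq2, 1619 at an unadjusted p below 0.05).

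Among animals with the knock-in, those without Pms1 had more Adcy5 RNA in the striatum. All 8 Q140 Pms1 null animals were above the highest Q140 animal, and the median was higher by 23.1%. In the fit this was a log2 fold change of 0.31 (SE 0.03, adjusted p = 2.52e-08), and with a term for late animal codes it was 0.32 (adjusted p = 1.34e-06). Adcy9 was higher by 0.16 (SE 0.05, adjusted p = 0.0196), with 7 of 8 animals above the highest Q140 animal. These were the 2 members called of 8, in a comparison that called 7.10% of all genes (5.07% higher). The Adcy9 call was lost with library totals (log2 fold change 0.12, adjusted p = 0.0501), with limma on FPKM, in either sex alone and with a term for late animal codes (0.15, adjusted p = 0.0894). Without the knock-in, Adcy9 had 0.13 in Pms1 null against WT (adjusted p = 0.068), and its interaction was 0.03 (adjusted p = 0.837). The comparisons of Q140 with WT and of Q140 Pms1 null with Q140 share the 8 Q140 animals, with opposite sign.

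The level of Adcy5 in Q140 Pms1 null striatum stayed below WT. All 8 animals were below the lowest WT animal (log2 fold change -0.28, adjusted p = 3.57e-08), in a comparison that called 20.0% of all genes (9.94% lower). Adcy9 had -0.03 against WT (adjusted p = 0.691), and its group overlapped WT. The summed MSN markers lay at 9800, 11272 and 11512 CPM in these animals, and Adcy5 was a median of 15.1% of that sum. The comparisons of Q140 and of Q140 Pms1 null with WT share the WT animals.

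With 1 Pms1 copy no such change was called. Adcy5 in Q140 Pms1 het was higher than in Q140 by 0.09 on the log2 scale (adjusted p = 0.880), and 4 of 8 animals were above the highest Q140 animal. The comparison called 0% of all genes (0 with edgeR, 1 with DESeq2, 1026 at an unadjusted p below 0.05, Adcy5 and Adcy8 among them). Without the knock-in, Pms1 het against WT called 0% too (0 genes with edgeR, 17 with DESeq2, 1882 at an unadjusted p below 0.05, none of them a member).

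Loss of Pms1 alone called none of the 8 members in the striatum, against 7.91% of all genes. Adcy9 came nearest, at 0.13 (adjusted p = 0.068), with 5 of 8 Pms1 null animals above the highest WT animal. The 4 females lay between 89.3 and 100.3 CPM, and the 4 males at 77.1, 77.2, 80.4 and 95.5 CPM. It was called in females alone (log2 fold change 0.26, adjusted p = 0.0123) and not in males alone (-0.01, adjusted p = 0.957); the difference between the sexes was not tested. It was also called with library totals (0.14, adjusted p = 0.0319), with limma on FPKM (0.13, adjusted p = 0.048) and without the 4 libraries high in cortical markers (0.13, adjusted p = 0.0377). Adcy6 had 0.12 (adjusted p = 0.0954).

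In cortex, Adcy6 and Adcy8 changed with loss of Pms1 alone, in a comparison that called 9.58% of all genes (5.31% higher, 4.26% lower). Adcy6 rose from 57.2, 63.2 and 68.2 CPM in WT to 61.1, 68.7 and 74.8 CPM in Pms1 null, with 5 of 8 animals above the highest WT animal (log2 fold change 0.14, SE 0.03, adjusted p = 0.00563). Adcy8, a calcium-stimulated cyclase, fell from 27.5, 31.4 and 37.0 CPM to 25.2, 28.7 and 31.2 CPM, with 3 of 8 animals below the lowest WT animal and all 8 below the WT median (log2 fold change -0.20, SE 0.06, adjusted p = 0.0201). In the same comparison 4 of 10 markers of endothelial and mural cells were lower (sum 278, 293 and 328 CPM in WT against 242, 267 and 291 CPM without Pms1), as were 3 of 10 markers of oligodendrocytes (1806, 2050 and 2295 CPM against 1807, 1899 and 2161 CPM), with none of either list higher. Other lists held called genes too. Lower were 2 of 10 microglia, 2 of 10 interneuron, 2 of 14 MSN and 1 of 10 cortical glutamatergic markers, with none higher. Of 10 astrocyte markers, 2 were lower and 1 was higher. The part of all these markers in the Adcy6 and Adcy8 results was not tested.

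Adcy6 was also higher in Q140 Pms1 null than in WT cortex, at 63.3, 69.4 and 74.3 CPM (log2 fold change 0.13, SE 0.03, adjusted p = 0.0107). It was the 1 member of 8 called there, against 7.66% of all genes (4.17% higher). Both comparisons use the same WT animals. Against Q140, in a comparison that called 0.0107% of all genes (2 genes, 167 with DESeq2), Adcy6 had 0.12 in Q140 Pms1 null (adjusted p = 0.122; called with DESeq2), and Adcy7 had 0.23 (adjusted p = 0.115). With a term for late animal codes, Adcy6 had 0.09 in Pms1 null (adjusted p = 0.231) and 0.08 in Q140 Pms1 null (adjusted p = 0.322), and Adcy8 had -0.18 (adjusted p = 0.146), so none of these calls remained. In males alone none remained either, and in females alone only Adcy6 in Pms1 null did. For Pms1 null against WT in cortex, the calls over all genes fell as well. They went from 1792 to 293 with the late-code term, 2 in males and 1005 in females. All animals without Pms1 have late codes, so that loss of Pms1 and code overlap in this design. The calls remained without the 3 libraries high in choroid plexus markers (Adcy6 0.13, adjusted p = 0.0213, and Adcy8 -0.20, adjusted p = 0.0259, in Pms1 null).

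**Figure D5:**
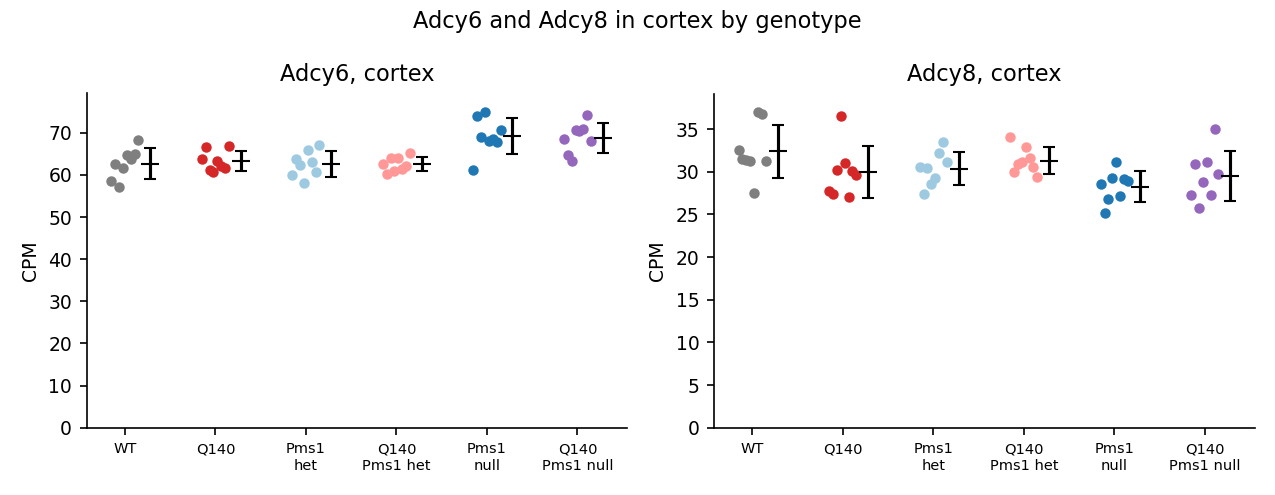
Adcy6 and Adcy8 in the cortex of every animal by genotype, in CPM with the axis starting at 0. Marks beside the points give each group's mean and standard deviation. The Adcy6 median is 63.2 CPM in WT, and without Pms1 it is 68.7 CPM, or 69.4 CPM where the knock-in is present, and Adcy8 has 28.7 CPM in Pms1 null against 31.4 CPM in WT, with overlapping groups throughout.

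The remaining cortical comparisons called no member. Q140 against its control called 0.112% of all genes on the Pms1 het background (21 genes, 217 with DESeq2 and 322 in males alone) and 0.0428% on the Pms1 null background. Both cortical interactions, and the comparisons of 1 Pms1 copy with 2 copies with or without the knock-in, called 0% of all genes with edgeR, with 1020 to 1938 genes at an unadjusted p below 0.05. DESeq2 called 36 genes for Pms1 het against WT, and the Pms1 het interaction called 153 in males alone. Summed over the family, cortex had group medians from 216 to 220 FPKM.

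Genes around the cyclases in the same pathway were examined from lists of receptors, G proteins, calcium inputs, effectors and phosphodiesterases. In Q140 against WT striatum 31.3% of all genes were called, 15.4% lower. Among 19 tested receptors that stimulate adenylyl cyclase, 6 were lower and 0 higher (median log2 fold change -0.08, against 0.01 over all genes), so the share called was close to that of all genes. They include Adora2a, the adenosine receptor of indirect-pathway MSNs, at a median of 458 CPM in WT and 284 CPM in Q140 (log2 fold change -0.70), and Gpr3, a constitutively active Gs-coupled receptor (-0.68). Among 24 receptors that inhibit the enzyme, 11 were lower and 3 higher. Cnr1, the cannabinoid CB1 receptor, fell by 0.80 on the log2 scale and Htr1b, a serotonin receptor, by 0.60, while the neuropeptide Y receptor Npy1r rose by 0.45 and the glutamate receptor Grm8 by 0.44.

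Of 19 G protein subunits and regulators, 10 were lower and 1 higher, against 15.4% lower of all genes. Rgs4 and Rgs9, which speed the shut-off of G proteins, had -0.71 and -0.53, and the gamma subunit gene Gng3 had 0.45. Of 12 calcium and calmodulin inputs, 9 were lower and 1 higher, against the same share, with a median of -0.22. The calmodulin-binding peptide gene Pcp4 had -0.59, the calcineurin subunit gene Ppp3ca had -0.42, and the kinase gene Camk2d had 0.21.

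Downstream, 12 of 26 effectors of cyclic AMP were lower and 2 higher, where 31.3% of all genes were called and 15.4% were lower. The striatal phosphoproteins Arpp21 and Arpp19 had -0.71 and -0.65, and the protein kinase A inhibitor Pkia and regulatory subunit Prkar1b had 0.17 and 0.16. Of 15 phosphodiesterases, which degrade cyclic AMP, 5 were lower and 1 higher, a share called near that of all genes. Pde10a, the main phosphodiesterase of MSNs, had a median of 2577 CPM in WT and 1600 CPM in Q140 (log2 fold change -0.67), Pde1b had -0.55, and the weakly expressed Pde4c had 0.36. Among 6 other nucleotide cyclases 2 were called: Npr2, a receptor guanylyl cyclase, rose by 0.38 and Adcy4 fell by 0.27 (adjusted p = 0.0252; median 3.56 CPM in WT and 2.99 CPM in Q140).

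In Q140 Pms1 null against Q140 striatum, 7.10% of all genes were called and 5.07% were higher; 71.4% of the called genes were higher with TMM scaling and 29.0% with library totals. In these lists the counts higher were 4 of 19 stimulating receptors, 7 of 24 inhibiting receptors, 7 of 19 G protein genes, 8 of 12 calcium inputs, 6 of 26 effectors, 4 of 15 phosphodiesterases and 0 of 6 other cyclases. Gng3, in the G protein list, was the 1 gene that was lower (log2 fold change -0.13). Adora2a had a median of 375 CPM and Cnr1 346 CPM in Q140 Pms1 null, and both were called higher (log2 fold change 0.40 and 0.41). Gpr3 (-0.08, adjusted p = 0.841) and Htr1b (0.18, adjusted p = 0.34), which also fell in Q140, were not called. Neither were the risen Npy1r (-0.01, adjusted p = 0.952) and Grm8 (-0.13, adjusted p = 0.5). The Q140 animals are the same as in the comparison with WT. In cortex 1 gene of these lists, Rgs4, was called for Q140 against WT, where 0.0428% of all genes were (8 genes), and Rgs4 was lower.

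The genes whose striatal level followed each changed member most closely were found over the 48 striatal libraries and 9658 genes. For Adcy5 they were Scn4b, a sodium channel subunit of MSNs (Pearson r 0.986), Pde1b (0.983) and Pde10a (0.981). For Adcy9 they were the transcription factor Klf9 (0.915), the histamine receptor Hrh3 (0.899) and Rapgef2, an exchange factor for Rap (0.876). Adcy5 and Adcy9 correlated at 0.685 over the 48 libraries and at 0.232 after each genotype's mean was removed. These libraries share the differences between genotypes, so the coefficients are descriptions.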

How the data were processed

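Striatal and cortical RNA went through a stranded TruSeq kit, per the labels' protocols. The deposited counts are whole numbers of reads for each gene, not normalized, and the second table holds FPKM values made by the authors. The submitters' processing notes name STAR 2.7.5c, SAMtools 1.10, HTSeq 0.12.3 and the builds GRCm38 and mm10; strand setting and annotation release: not given in the sources used here. The series text gives a larger number of animals per group than the labels of 1 tissue, and the labels were followed. Library totals lay between 27993751 and 56364535 counts.

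The test of counts was edgeR's (version 4.0.16, R 4.3.3; TMM scaling, filterByExpr by genotype, robust quasi-likelihood fit), with the 48 libraries of a tissue fitted together on genotype and sex. Calls were made at an adjusted p (Benjamini-Hochberg, over all genes tested) below 0.05, and all adjusted p-values are edgeR's unless another tool is named. P-values take the animals as independent, although those sharing the first number of their code had correlated residuals (0.133 in striatum, 0.131 in cortex). Tissues were compared in 1 fit over 96 libraries. Both tissues came from the same animals: the deviations of the 48 pairs of libraries from their group means correlated at a median of 0.283 (lowest 0.193), and an alternative fit held the animal as a block. CPM values carry TMM factors. Alternatives used DESeq2 1.42.0, limma 3.58.1 on log2(FPKM + 0.1), other scaling, filters, samples and terms for animal codes. The scripts were tested on simulated data.

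Named genes were the 8 members, Pms1 and Htt, up to 2 risen and 2 fallen genes per pathway list with the largest change in Q140 striatum among called genes averaging 1 CPM or more, and the 3 genes of at least 10 CPM most correlated with each member called there. Htt had a log2 fold change of -0.07 in Q140 striatum (adjusted p = 0.0158). Members and lists were chosen with earlier results of these data known. Coordinates came from GENCODE M21 and promoters from RefSeq's GRCm38.p6 table.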

Additional observations from a re-analysis of the deposited data

Results flagged for a closer look

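Of 96 groups of 8 animals tested for an animal far from the others (by Dixon's ratio of the gap to the group's range), 7 held one; chance gives about 1 in 20 groups. In cortex, Adcy1 was lowest in Q140 Pms1 null animal 21-4, at 1213 CPM against 1366 CPM in the next. Adcy2 was highest in Q140 Pms1 het animal 13-1, at 181.0 CPM against 170.8 CPM. Adcy5 was lowest in the cortex of Q140 Pms1 het animal 8-3, at 113.3 CPM against 118.2 CPM. Adcy8 was highest in the cortex of Q140 animal 9-2, at 36.53 CPM against 31.03 CPM. In striatum, Adcy3 was highest in Q140 animal 15-1, at 110.5 CPM against 103.3 CPM, and Adcy8 in Q140 Pms1 het animal 8-1, at 8.122 CPM against 5.642 CPM. Adcy9 was lowest in the striatum of Q140 Pms1 het animal 9-4, at 65.9 CPM against 70.67 CPM; that library is among the 4 with high cortical markers.

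The knock-in effect differed between tissues for Adcy5, by -0.62 on the log2 scale (striatum minus cortex), and for Adcy9, by -0.28. For Adcy5 in striatum it also differed between the Pms1 null and WT backgrounds, by 0.33.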

How the results depend on the processing

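Of 243 recomputed counts of called members, 219 stayed within 1.5 times the reported count and 24 did not. A count of 0 that stayed at 0 is among the 219, so comparisons that called no member make up much of that number. No member called in the reported fit changed direction under an alternative. Values that were not called did in places: Adcy9 in Pms1 null against WT striatum was 0.13, and -0.01 in males. Adcy5 kept its call for Q140 against WT in striatum under all 12 alternatives (log2 fold change -0.62 to -0.52), as did Adcy9 (-0.20 to -0.11, adjusted p 7.88e-05 to 0.0271), and Adcy5 kept its call for Q140 Pms1 null against Q140 under all 11 (0.25 to 0.37). The counts that moved were in striatum 2 to 1 for Q140 Pms1 null against Q140 (library totals, limma on FPKM, females, males, late-code term), 2 to 1 against Pms1 null (only the genotypes compared, males), 2 to 1 for Q140 Pms1 het against Pms1 het (library totals, no filter, limma, females, males), 0 to 1 for Pms1 null against WT (library totals, limma, females, and, chosen after seeing the data, without the libraries high in cortical markers) and 1 to 0 for the Pms1 null interaction (males). In cortex they were 0 to 1 for Q140 Pms1 null against Q140 (DESeq2), 1 to 0 for Q140 Pms1 null against WT (females, males, late-code term) and 2 to 1 (females) or to 0 (males, late-code term) for Pms1 null against WT. The cause was not tested; fits of 1 sex hold fewer animals. The cortical fits without the libraries high in choroid plexus markers were also chosen after seeing the data.

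With the animal as a replicate block, 8 of 8 members differed between WT tissues, as in the reported fit, where 76.0% of all genes tested did. The tissue difference of the knock-in effect was -0.62 for Adcy5 and -0.28 for Adcy9, and the reported fit called 13.3% of all genes for it. The block changed no other call. Comparisons of genotypes within a tissue have no pairing.

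Over all genes, scaling changed the split of calls. For Q140 against WT in striatum, 5909 genes were called, 50.8% of them higher, against 7940 (79.8% higher) with library totals, 7809 (79.9%) with limma on FPKM and 2807 in males. For Q140 Pms1 null against Q140 it was 1342 (71.4% higher), against 2148 (29.0%) and 2164 (28.4%), and 601 in females and 175 in males. Q140 Pms1 het against Pms1 het called 4698 (51.5% higher), with 6112 (76.9%) for library totals, 2169 in females and 2481 in males. For Q140 Pms1 null against Pms1 null it was 2090, with 1013 in females and 431 in males. Q140 Pms1 null against WT called 3783, with 1163 in females, 1521 in males and 2143 with the late-code term. For Pms1 null against WT it was 1494 in striatum (0 in males, 473 with the late-code term, 984 without a filter) and 1792 in cortex (2 in males, 1005 in females, 293 with that term).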
